A study of Mus musculus with 75 samples.

Results

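The transcripts of 10 matrix metalloproteinases were followed in the lungs of mice with bleomycin-induced fibrosis, a model of idiopathic pulmonary fibrosis (IPF). The genes Mmp2, Mmp3, Mmp8, Mmp9, Mmp11, Mmp12, Mmp13, Mmp14, Mmp15 and Mmp19 were chosen by symbol, and all 10 were found among the 55536 genes of the count table. All 10 also passed the filter on low counts, as did 16221 genes in total. Poly(A) RNA from the inferior lobe was sequenced in 75 male C57BL/6JRj mice, with 1 library per mouse. In BLEO-IPF mice, bleomycin sulphate (BLEO) had been instilled once into the trachea at 12 to 14 weeks of age, and mice entered the study groups only if they had lost between 5% and 17% of body weight by day 6. They were killed on day 7 (n = 10), on days 14, 21, 28 and 35 (n = 12 each) or on day 42 (n = 7). The 10 control mice (CTRL) are labelled as given saline but described as untreated in the treatment text. The lungs had been rinsed with saline to collect lavage fluid before the lobe was taken, so loose cells of the airspaces were partly removed, and mice with weaker or stronger weight loss are not represented.

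Matrix metalloproteinases are zinc-dependent endopeptidases that cut components of the extracellular matrix. Most are made as inactive proenzymes and are switched on when a propeptide is removed, by plasmin, by other members of the family or, for the membrane-type and some other members, by furin-like convertases inside the cell. Tissue inhibitors of metalloproteinases (TIMPs) block the active enzymes. The family includes collagenases, which cleave native fibrillar collagen (Mmp8 and Mmp13), gelatinases, which degrade denatured collagen and basement membrane (Mmp2 and Mmp9), a stromelysin with broad substrates (Mmp3), an elastase of macrophages (Mmp12) and enzymes anchored in the cell membrane (Mmp14 and Mmp15). In fibrotic lung they are made by fibroblasts, macrophages, neutrophils and epithelial cells, and they are known for both removing and remodelling matrix. The values here are transcript levels, and they do not show how much enzyme was made or was active.

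Levels are given as CPM, which are counts scaled to a common library size and for library composition, and differences as log2 fold changes. A gene was called changed at an adjusted p under 0.05 over all 16221 genes in edgeR's quasi-likelihood test. Libraries held from 9240291 to 14665247 counts, and counts of the members ran from 4 for Mmp13 to 8555 for Mmp2 in single libraries. In whole-lobe RNA, fewer cells of a type and less RNA per cell cannot be told apart. Genes of alveolar type 2 (AT2) cells and of club cells were abundant in every library, with summed levels of at least 6220 and 2305 CPM. In the library of day 28 replicate 10, skeletal muscle genes summed to 847 CPM and heart muscle genes to 1747 CPM, against at most 14 and 538 CPM, both in day 28 replicate 11, among the other libraries. That library had the lowest level of its day for Mmp2, Mmp3, Mmp8, Mmp11, Mmp12, Mmp13 and Mmp14. It had the highest Mmp9 of its day, 11.2 CPM, and ranked 7 of 12 for Mmp15. Without it, the number of members called on day 28 was 9, as with it. Mmp12 was then higher than in CTRL by 4.00 on the log2 scale in place of 3.90, and Mmp9 was at -0.92 in place of -0.84.

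Most of the 10 members rose after BLEO, and the time courses differed between them. On day 7, 7 of 10 members were higher than in CTRL, against 24.8% of all genes tested, and Mmp15 alone was lower, against 21% of all genes. On day 14 the same 7 were higher (background 32.4%) and Mmp15 was again lower (background 29.9%). With Mmp11 added, 8 members were higher on day 21 (background 28.3%) and on day 28 (background 24.1%), and the 1 member lower on both days was Mmp9, with backgrounds of 25.8% and 19.2%. On day 35, 7 members were higher (background 16.9%) and 0 lower (background 13.1%), and on day 42, 6 were higher (background 13.7%) and 0 lower (background 11%). For days 7, 14 and 21 the median log2 fold change over the 10 genes came to 1.20, 2.10 and 1.86, and for the 3 later days to 1.28, 1.06 and 1.02, while the median over all genes tested lay between -0.00 and 0.02. Mmp2, Mmp12, Mmp13, Mmp14 and Mmp19 were called higher on all 6 days. The share of all genes called higher on all 6 days was not computed, and the shares of single days do not replace it. These comparisons share the same 10 CTRL mice, so they do not count as separate observations of the controls.

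**Figure D1:**
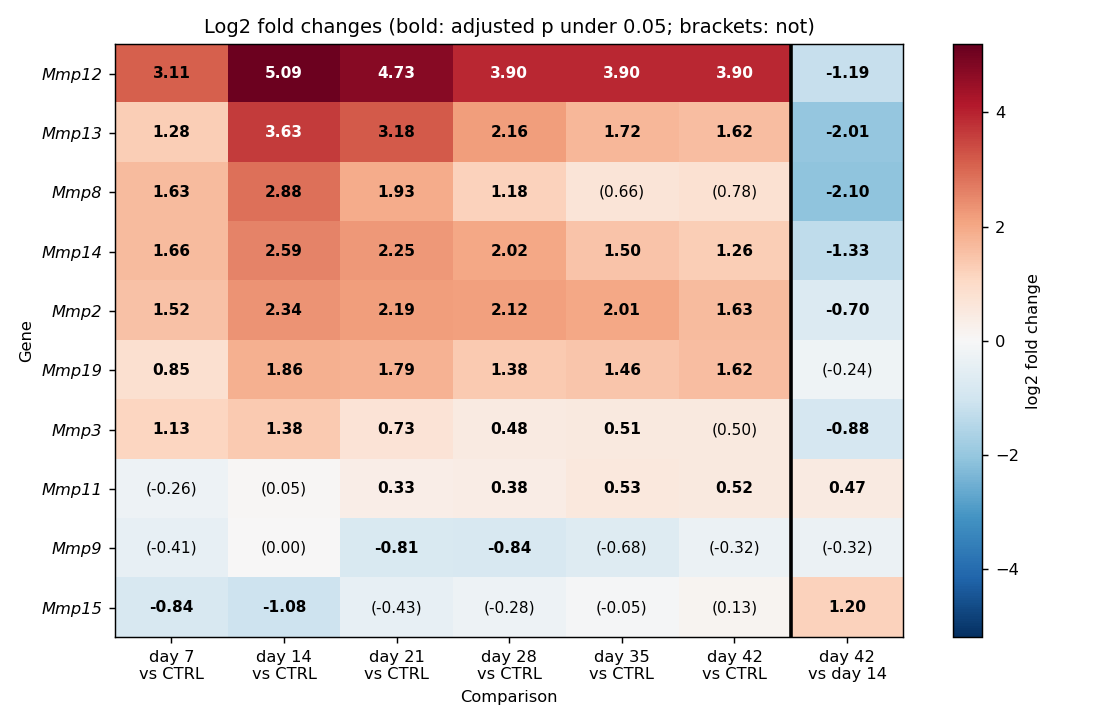
Log2 fold changes of the 10 genes (rows, ordered by day 14) for each day after BLEO against CTRL and, right of the black line, for day 42 against day 14, with bold values at an adjusted p under 0.05 and values in brackets above it. Mmp12 has the largest increase on every day, with 5.09 on day 14, and Mmp15 is the lowest row on day 14 with -1.08 and is higher on day 42 than on day 14 by 1.20.

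The gelatinase gene Mmp2 was increased in every BLEO-IPF mouse. The gene lies on the plus strand of chromosome 8 (92827291 to 92853420, build GRCm38). Its level in CTRL mice ranged from 79.2 to 133 CPM, with a median of 109 CPM. It ranged from 184 to 448 CPM on day 7 (median 291), from 404 to 691 CPM at day 14 (median 533) and from 280.1 to 395 CPM at day 42 (median 346). In between, days 21, 28 and 35 gave 358 to 627, 247 to 834 and 340.3 to 635 CPM, with medians of 488, 434 and 398 CPM. Each BLEO-IPF mouse of each day lay above the highest CTRL mouse. Against CTRL, days 7, 14 and 42 had log2 fold changes of 1.52 ± 0.14 (SE), 2.34 ± 0.14 and 1.63 ± 0.15, with edgeR adjusted p of 4.87e-14, 5.39e-23 and 2.04e-13. Between day 14 and day 42 it fell by 0.70 (edgeR adjusted p = 1.56e-04), with all 7 mice of day 42 below all 12 mice of day 14. No step between neighbouring days after day 14 passed the test. The spread between mice was small at the peak, with an SD of 0.22 on the log2 scale on day 14, against a median of 0.27 over all genes.

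Mmp14 encodes the membrane-anchored collagenase that activates the proenzyme of Mmp2 at the cell surface. It lies on chromosome 14 (54431612 to 54445364, plus strand). CTRL mice had 45.3 to 62.7 CPM (median 53), day 7 mice 122 to 207 CPM (median 179), day 14 mice 164 to 514 CPM (median 288) and day 42 mice 86 to 197 CPM (median 131). Days 21, 28 and 35 had 134 to 502, 81.4 to 552 and 89.7 to 283 CPM, with medians of 216, 169.6 and 149.7 CPM. As for Mmp2, no BLEO-IPF mouse of any day overlapped with CTRL, but the mice of 1 day were much less alike. On day 28 the highest mouse had 6.78 times the level of the lowest (552 against 81.4 CPM), whereas the 10 CTRL mice lay within 1.38 times of each other. The lowest of that day was replicate 10, with the highest muscle sums, and the next, at 88.6 CPM, was replicate 11, with the second highest of all libraries. Relative to CTRL it rose by 1.66 ± 0.26 on day 7, by 2.59 ± 0.26 on day 14 and by 2.25 on day 21 on the log2 scale, and on day 42 it was higher by 1.26 ± 0.27 (edgeR adjusted p from 1.99e-13 on day 14 to 3.89e-04 on day 42). Mmp14 was lower on day 42 than on day 14 by 1.33 ± 0.28 (edgeR adjusted p = 1.49e-04).

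Mmp15, the other membrane-type member, went the opposite way early and then returned. Its gene lies on chromosome 8 (95352268 to 95375080, plus strand), as Mmp2 does. The CTRL range was 157 to 259.8 CPM, with a median of 198 CPM. On day 7 the range was 80.7 to 141 CPM (median 119), and every mouse lay below the lowest CTRL mouse. On day 14 the median was 91.4 CPM, and the mice spread from 26.8 to 209 CPM, with 11 of 12 below all CTRL mice and 1 within their range. Mmp15 fell by 0.84 ± 0.22 on day 7 and by 1.08 ± 0.21 on day 14 (edgeR adjusted p = 0.00152 and 1.29e-05). On day 21 the median was 170.4 CPM and the log2 fold change -0.43, which missed the threshold (edgeR adjusted p = 0.0795) but passed it in some other fits. From day 28 on it was -0.28, -0.05 and 0.13, none of them called. Levels on days 21, 28 and 35 spread from 57.6 to 212, from 58.7 to 221 and from 119 to 266 CPM, with the medians of the last 2 at 188 and 206 CPM. Day 42 mice, with 173 to 261 CPM and a median of 221 CPM, were higher than day 14 mice by 1.20 ± 0.23 (edgeR adjusted p = 4.44e-05).

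The macrophage elastase gene Mmp12 showed the largest increase of the 10 on each of the 6 days. It lies on the plus strand of chromosome 9 (7344381 to 7369499). In CTRL mice it was at 4.22 to 7.57 CPM in 9 mice and at 15.3 CPM in replicate 2, with a median of 5.84 CPM. The level was 34.2 to 79.2 CPM on day 7 (median 59.4), 77.2 to 570.5 CPM on day 14 (median 191) and 26.6 to 172 CPM on day 42 (median 101). On days 21, 28 and 35 it was 55.4 to 678, 23.7 to 276 and 13.9 to 267 CPM, with medians of 148, 76.6 and 82.6 CPM. All mice of days 7, 14, 21, 28 and 42 exceeded all CTRL mice, and on day 35, 11 of 12 did. The increase on the log2 scale was 3.11 ± 0.42 on day 7 (8.62-fold), 5.09 ± 0.44 on day 14 (34-fold) and 4.73 ± 0.43 on day 21. It then stood at 3.90 on each of days 28, 35 and 42, or about 15-fold, with edgeR adjusted p of at most 4.32e-10. The log2 difference was -0.01 between days 28 and 35 (95% interval -0.65 to 0.64) and -0.00 between days 35 and 42 (interval -0.75 to 0.75), neither called, and the intervals are wide. From day 14 to day 42 Mmp12 fell by 1.19 ± 0.40 (edgeR adjusted p = 0.0155). Without CTRL replicate 2, the day 14 value was 5.31 and the day 42 value 4.12. The spread between mice was wide throughout, with an SD of 1.15 on the log2 scale on day 35, more than that of 98.9% of genes.

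The collagenase genes Mmp8 and Mmp13 peaked on day 14 and had the largest falls of all members between day 14 and day 42. Mmp8 lies on chromosome 9 (7558456 to 7568485) and is best known as the collagenase of neutrophils. Its level was 1.98 to 4.94 CPM in CTRL (median 2.91), 5.76 to 15.2 CPM on day 7 (median 8.31), 6.56 to 54.6 CPM on day 14 (median 17.9) and 3.17 to 7.24 CPM on day 42 (median 4.64). Between these, the ranges of days 21, 28 and 35 were 4.9 to 24.7, 2.71 to 18.5 and 2.82 to 7.94 CPM, with medians of 8.84, 6.85 and 4.52 CPM. On days 7 and 14 all mice lay above CTRL, and on day 42 only 3 of 7 did. Mmp8 rose by 1.63 ± 0.32 and 2.88 ± 0.32 on days 7 and 14, and was still higher by 1.93 and 1.18 on days 21 and 28. The values of 0.66 and 0.78 for days 35 and 42 were not called (edgeR adjusted p = 0.113 and 0.0992). Between day 14 and day 42 Mmp8 fell by 2.10 ± 0.34, or 4.28-fold (edgeR adjusted p = 2.68e-06).

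Mmp13, the interstitial collagenase of connective tissue cells, lies in the same gene cluster (chromosome 9, 7272514 to 7283331). It was the member with the fewest reads, at 0.359 to 1.42 CPM in CTRL mice (median 0.778). It reached 0.731 to 2.83 CPM on day 7 (median 2.18) and 2.87 to 19 CPM on day 14 (median 8.67), and was at 1.73 to 3.65 CPM on day 42 (median 2.41). Days 28 and 35 had 0.702 to 12.6 CPM (median 2.57) and 1.41 to 4.66 CPM (median 2.23). On day 7 the ranges of CTRL and BLEO-IPF mice overlapped, and on days 14 and 42 they did not. Mmp13 also had the largest step of any member between days 7 and 14, a log2 difference of 2.35 ± 0.37 (edgeR adjusted p = 1.19e-05), with all 12 mice of day 14 above all 10 of day 7. Against CTRL the log2 fold change was 3.63 ± 0.42 on day 14 (12.4-fold) and still 1.62 ± 0.47 on day 42 (edgeR adjusted p = 0.00806). On day 21 a single mouse, replicate 1, had 33.5 CPM, against 11.4 CPM in the next, a median of 4.44 CPM and a lowest level of 2.75 CPM, and the same mouse had the highest Mmp12 of that day, 678 CPM.

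Mmp3, the broad-spectrum stromelysin that also activates other proenzymes of the family, lies between these genes (chromosome 9, 7445822 to 7455975). It was called higher on 5 of the 6 days, with the largest values on days 7 and 14. CTRL mice had 19.8 to 37.2 CPM (median 31), day 7 mice 47.1 to 115 CPM (median 65.7), day 14 mice 47.8 to 147 CPM (median 72.8) and day 42 mice 20.1 to 73.8 CPM (median 39.7). No day 14 mouse lay between 57.1 and 88.6 CPM, with replicates 1, 2, 3, 4, 7 and 8 above this gap and the others below it. Days 21, 28 and 35 gave 26.1 to 66.5, 22.3 to 64.2 and 27.8 to 68.8 CPM, with medians of 52.3, 45 and 43 CPM. On days 7 and 14 there was no overlap with CTRL, and from day 21 on the ranges overlapped. Mmp3 rose by 1.13 ± 0.19 on day 7 and by 1.38 ± 0.19 on day 14 (edgeR adjusted p = 1.67e-06 and 2.34e-09). For days 21, 28 and 35 the values of 0.73, 0.48 and 0.51 were called, and that of 0.50 for day 42 was not (edgeR adjusted p = 0.0684). The calls of days 28 and 35 were lost without any 1 of 6 and of 3 mice. Without CTRL replicate 2, for example, the values were 0.41 and 0.45, with edgeR adjusted p of 0.0717 and 0.0615. The drop from day 14 to day 21 by 0.65 was the 1 step between these days that passed in edgeR (adjusted p = 0.0428), but it was lost without any 1 of 14 of the 24 mice, such as day 14 replicate 8 (-0.54, edgeR adjusted p = 0.187).

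The other stromelysin by name, Mmp11, differed from the rest in its timing. Its enzyme is activated inside the cell by furin and is known from stroma around tumours. Mmp11 lies on the minus strand of chromosome 10 (75923222 to 75936496). CTRL mice had 31.9 to 45.1 CPM (median 40.7) and day 7 mice 27.9 to 42.1 CPM (median 31.8). The range was 24.5 to 50.7 CPM on day 14 (median 43.4), 45.5 to 71.2 CPM on day 35 (median 56.1) and 43.7 to 77.4 CPM on day 42 (median 53.7). Days 21 and 28 had 42.2 to 57.5 CPM (median 49.8) and 35.4 to 69 CPM (median 50.8). Day 7 mice tended to the low side, with a log2 fold change of -0.26 just over the threshold (edgeR adjusted p = 0.0502), and all 12 mice of day 35 lay above CTRL. The value was 0.05 on day 14 (edgeR adjusted p = 0.693), then 0.33, 0.38, 0.53 and 0.52 on the later days, all called (edgeR adjusted p from 0.0065 on day 21 to 7.82e-05 on day 35). Mmp11 was one of only 2 members higher on day 42 than on day 14, by 0.47 ± 0.12 (edgeR adjusted p = 0.00104). Its exons share 155 bases with those of Chchd10 on the opposite strand, a gene with 118% of the counts of Mmp11. The sources do not state whether strand was used in counting, so reads of that stretch are uncertain. Against CTRL, Chchd10 fell by 0.89 on day 14 and was at -0.32 on day 42, which did not pass (edgeR adjusted p = 0.134). From day 14 to day 42 Chchd10 was higher by 0.57, as Mmp11 was by 0.47. The 2 genes moved in opposite directions on days 21 and 28, where Chchd10 fell by 0.62 and 0.48, and from day 7 to day 14 (-0.61 against 0.31). In deviations from group means, their Spearman correlation over the 75 mice was 0.05.

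Mmp19, an enzyme of myeloid and stromal cells that cleaves basement membrane proteins, was nearly as high on day 42 as on day 14. It lies on chromosome 10 (128790910 to 128800824, plus strand). Levels were 20.8 to 34 CPM in CTRL (median 29.4), 42.4 to 58.2 CPM on day 7 (median 52.4), 56.5 to 172 CPM on day 14 (median 92.7) and 30.7 to 118 CPM on day 42 (median 94.3). Days 21, 28 and 35 had 68.1 to 147, 36.9 to 126 and 41.7 to 144 CPM, with medians of 101, 58.2 and 67.5 CPM. All mice of days 7 to 35 were above CTRL, as were 6 of the 7 mice of day 42. Mmp19 rose by 0.85 ± 0.21, 1.86 ± 0.21 and 1.62 ± 0.23 on days 7, 14 and 42 (edgeR adjusted p = 6.55e-04, 8.63e-12 and 1.25e-07). The difference between days 42 and 14 was -0.24 (95% interval -0.67 to 0.19) and was not called (edgeR adjusted p = 0.404). Its exons share 789 bases with those of Tmem198b on the opposite strand, which had 23.8% of its counts and a log2 fold change of 0.38 on day 14 and 0.14 on day 42.

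Mmp9, the gelatinase of neutrophils and macrophages, was, with Mmp15, one of the 2 members not called higher than in CTRL on any day. It lies on chromosome 2 (164940780 to 164955850, plus strand). CTRL mice had 5.42 to 16.6 CPM (median 13.2), day 7 mice 5.2 to 12.2 CPM (median 9.29), day 14 mice 3.69 to 49.7 CPM (median 7.52) and day 42 mice 3.19 to 26.9 CPM (median 7.16). Days 21, 28 and 35 had 4.54 to 10.6, 3.12 to 11.2 and 3.33 to 12.4 CPM, with medians of 6.58, 6.43 and 7.21 CPM. The medians of all BLEO-IPF groups were thus below that of CTRL, while 2 mice of day 14 and 1 of day 42 were above all CTRL mice. On day 14 the mean was 12.1 CPM in both groups and the log2 fold change 0.00 (edgeR adjusted p = 0.99). That value depended on replicate 8, at 49.7 CPM, and without this mouse the log2 fold change was -0.47 (edgeR adjusted p = 0.0777). No mouse of days 7, 21, 28 or 35 lay above all CTRL mice. Mmp9 was at -0.41 on day 7 and not called (edgeR adjusted p = 0.254). It fell by 0.81 and by 0.84 on days 21 and 28 (edgeR adjusted p = 0.0128 for each). On day 35 it was at -0.68 and not called (edgeR adjusted p = 0.0568), and on day 42 at -0.32 (edgeR adjusted p = 0.508). Without day 42 replicate 3, the last value was -0.83 (edgeR adjusted p = 0.0613).

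The high Mmp9 mice also had high levels of some neutrophil genes. In day 14 replicate 8, 12 neutrophil marker genes summed to 595 CPM, against a median of 109 CPM for that day. The genes S100a8 and S100a9, which encode the calprotectin subunits, were at 159 and 199.9 CPM there, against medians of 14.3 and 17.2 CPM. Day 14 replicate 1, with the next highest Mmp9 (22.1 CPM), had a marker sum of 259 CPM. Day 42 replicate 3, with 26.9 CPM of Mmp9, had the highest S100a8, S100a9 and Csf3r of its day, but the highest marker sum of day 42, 554 CPM, was in replicate 1, where Ltf (lactoferrin) alone gave 463 CPM. The defining markers Ly6g and Mpo were near the limit of detection in all groups, at 0 to 0.504 CPM. The sum of the list ranged from 47 to 120.5 CPM in CTRL and from 62 to 142 CPM on day 21. What part of the Mmp9 values came from neutrophils was not tested.

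**Figure D2:**
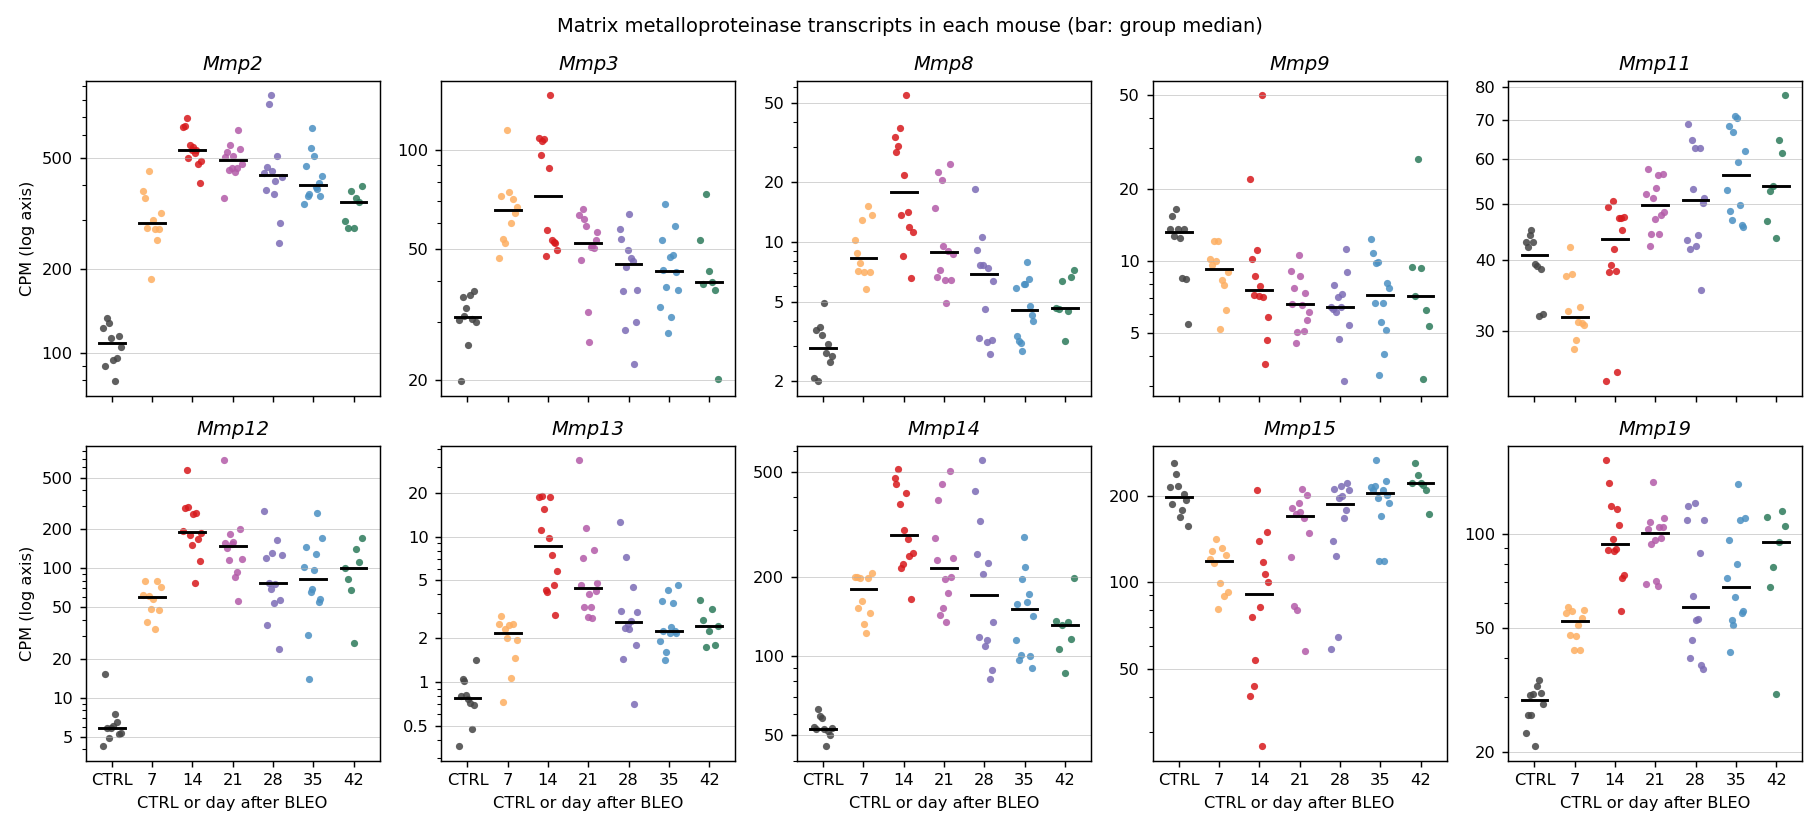
Level of each gene in each of the 75 mice, as CPM on a logarithmic axis that differs between panels, for CTRL and the days after BLEO, with a bar at the group median. Mmp2 and Mmp14 of all BLEO-IPF mice lie above all CTRL mice, Mmp15 dips on days 7 and 14, and single mice stand out for Mmp9 (49.7 CPM on day 14 and 26.9 CPM on day 42).

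Between neighbouring days, most of the movement took place by day 14. From day 7 to day 14, 7 members rose (Mmp2, Mmp8, Mmp11, Mmp12, Mmp13, Mmp14 and Mmp19), against 9.48% of all genes, and 0 fell, against 7.55%. The call of Mmp11, with a log2 difference of 0.31, was lost in several other fits. From day 14 to day 21 only Mmp3 was called lower (background 0.579%), and 0 members were called higher (background 0.45%). Mmp8 had a larger drop in that step, -0.95 ± 0.26, which missed the threshold in edgeR (adjusted p = 0.0544) and passed it in DESeq2 (adjusted p = 0.0354). From day 21 to day 28, 0 members were called in either direction (background 0.413% higher and 0.314% lower), with 4 members at an unadjusted p under 0.05. The same held from day 28 to day 35 (background 0.808% and 0.462%), with 1 member at an unadjusted p under 0.05. From day 35 to day 42, where edgeR called 0% of all genes higher and 0% lower, 1 member, Mmp2, had an unadjusted p under 0.05. DESeq2 also called 0 members in these 3 steps. Between day 14 and day 42, 6 members fell (Mmp2, Mmp3, Mmp8, Mmp12, Mmp13 and Mmp14), against 18.8% of all genes, and 2 rose (Mmp11 and Mmp15), against 15.2%.

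When levels were compared between genes, as CPM per kilobase of annotated exon (RPKM), the make-up of the 10 transcripts shifted. In CTRL lungs Mmp15 stood highest, with a mean of 37.3 ± 5.82 RPKM (SD, n = 10), followed by Mmp2 with 31.9 ± 5.25, a difference within their spread. Mmp3, at 17.2 RPKM, and Mmp11, at 14.3 RPKM, came next, and Mmp13 was lowest, at 0.303 RPKM. On day 14 Mmp2 stood far above the rest with 161 ± 24.2 RPKM (n = 12), ahead of Mmp14 with 54.4 ± 19.6 and Mmp3 with 44.8 ± 18.2, which overlapped, and Mmp12 with 31.7 ± 17.6. Mmp15 then had 17.7 ± 9.87 RPKM. The sum over the 10 genes was 124 ± 13.7 RPKM in CTRL, 370.5 ± 73.2 on day 14 and 251 ± 31.1 on day 42. The mean share of Mmp2 in that sum was 25.7% in CTRL, 44.1% on day 14 and 39.5% on day 42, and the share of Mmp15 was 30.1%, 5.27% and 16.6%. Exon length was taken over all annotated transcripts of a gene, so genes with many rare isoforms, such as Mmp12, may be set too low on this scale.

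**Figure D3:**
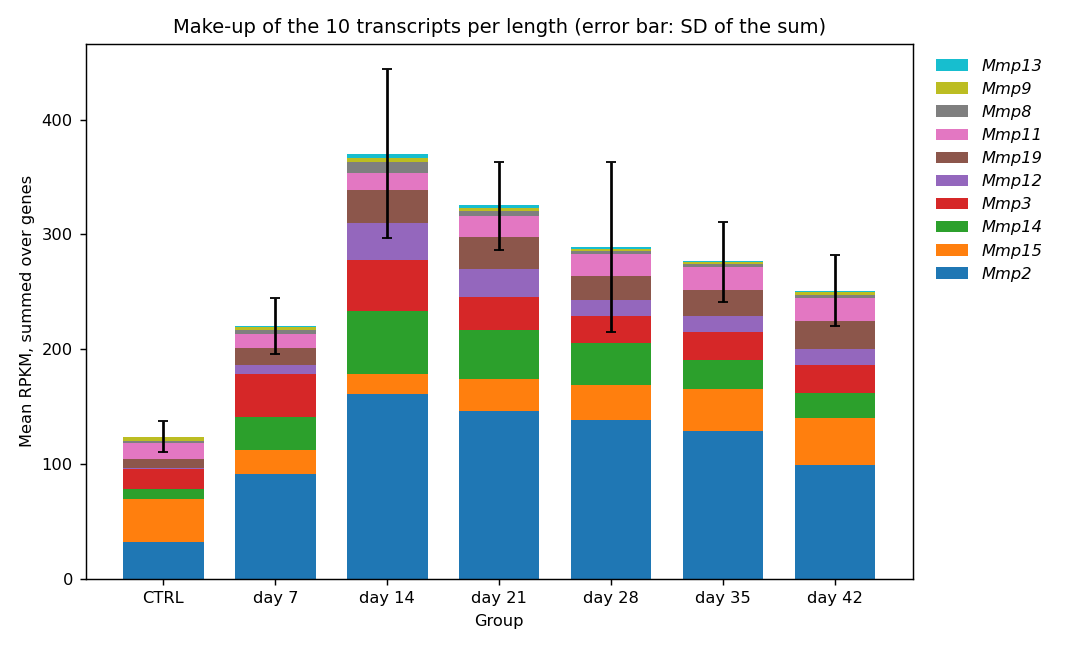
Mean RPKM of each gene stacked for CTRL and each day after BLEO, with the error bar showing the SD of the sum over the 10 genes between mice. The sum is 124 RPKM in CTRL and 370.5 RPKM on day 14, and Mmp2 takes the largest part in every BLEO-IPF group.

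Mmp3, Mmp8, Mmp12 and Mmp13 lie in 1 cluster of metalloproteinase genes on chromosome 9, and all 4 rose on days 7 and 14. Promoter windows from RefSeq (GRCm38.p6), with 250 bases before and 50 after the start, were at hand for 7 of the 10 members, with 2 starts for Mmp12, and were searched on both strands. Mmp2, Mmp9 and Mmp19, all outside the cluster, had no window. Only Mmp11, Mmp14 and Mmp15 stood for members outside it, so the search does not show whether a motif is particular to the cluster. The AP-1 motif TGANTCA, bound by Fos and Jun dimers, was found in 3 of these 8 windows, all of them within the cluster, against 7.81% of 32851 windows of all genes. The 100 bases before these starts are shown because they are the windows that hold the motif, which is in capitals, at 35 bases before the start of Mmp13, at 44 before the second start of Mmp12 and at 46 before that of Mmp3. The regions are chr9:7272414-7272513, chr9:7347274-7347373 and chr9:7445722-7445821, all on the plus strand.
Mmp13: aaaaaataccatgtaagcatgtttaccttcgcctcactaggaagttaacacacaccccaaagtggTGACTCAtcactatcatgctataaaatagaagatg
Mmp12: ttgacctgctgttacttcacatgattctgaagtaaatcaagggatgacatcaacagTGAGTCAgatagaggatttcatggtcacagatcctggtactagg
Mmp3: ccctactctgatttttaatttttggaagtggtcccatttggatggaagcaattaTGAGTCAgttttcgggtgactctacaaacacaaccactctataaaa
These 3 windows also held the letters of the TATA box, TATAAA, as did that of Mmp8 (13.6% of all windows). The match began at position -16 from the start for Mmp13, -7 for Mmp3 and -3 for Mmp8. For the second start of Mmp12 it began at position 5, after the start and outside the bases printed. The Sp1 motif GGGCGG (35.7% of all windows) was found for Mmp11, Mmp14 and Mmp15. The ETS motif AGGAAG (35.4% of all windows) was found for Mmp3, Mmp8, Mmp12, Mmp13 and Mmp14. A match of letters does not show that a factor was bound. A list of 12 factor genes held AP-1 and ETS factors and, in addition, Runx2. Of these, 5 were higher, Runx2 among them, and 4 lower than in CTRL on day 14, near the shares of all genes (32.4% and 29.9%). The median log2 fold change of the list was 0.33, against 0.01 over all genes. Etv4 rose by 3.95 and Fosl1 by 3.89, Junb by 0.87, and Etv5 fell by 0.84. On day 42, 0 were higher (background 13.7%) and 2 lower (Jun and Ets2, background 11%).

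Mice of 1 group differed in their metalloproteinase levels, and some members, among them Mmp8, Mmp13 and Mmp14, moved together across mice. As a description over the 75 mice, each gene's log2 CPM was taken as a deviation from its group mean and compared by Spearman's rho, in which mice of 1 group share their day but not their library. Mmp14 followed the collagen genes Col1a2 (rho 0.95) and Col5a2 (0.94) and the protease inhibitor gene Serpine2 (0.94) most closely. Mmp2 was most like Col3a1 and Ccdc88b (0.74 each), followed by Parvg (0.71). Its rho was 0.59 with the summed markers of monocyte-derived macrophages, 0.50 with those of fibroblasts and 0.47 with those of myofibroblasts. Mmp15 was most like Etv5 (0.91), followed by Krt23 and Acoxl (0.88 each). The summed markers of AT2 cells, which include Etv5, gave 0.83 with Mmp15, and those of myofibroblasts gave 0.90 with Mmp14. For CTRL and days 7, 14 and 42, the AT2 sum had medians of 24356, 20638, 12527 and 27953 CPM, and the myofibroblast sum 1216, 1770, 2482 and 1507 CPM. On day 42 the myofibroblast sum was raised mainly through Ltbp2 (median 442 CPM, against 165 in CTRL) and Tnc (116 against 26.6). Cthrc1 was at 5.95 against 4.53 CPM. Acta2 (225 against 222), Tagln (192 against 205), Postn (506 against 547) and Aspn (42.2 against 42.4) were near or below CTRL. The sum is thus not a measure of cell number. The part of cell numbers in the values of Mmp14 and Mmp15 was not tested.

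Mmp8 was most like Ccr1 (0.85), a chemokine receptor of myeloid cells, Arg1 (0.83), a marker of alternatively activated macrophages, and Ms4a6d (0.83), and had rho of 0.73 with the myofibroblast sum, 0.68 with that of monocyte-derived macrophages, 0.35 with that of neutrophils and -0.72 with that of AT2 cells. The sum of monocyte-derived macrophages had its highest rho with Mmp14, 0.87. Mmp12 was most like Ccl9 and Hk3 (0.75 each) and Psap (0.73), Mmp19 like Lgals3 (0.81), Bst1 and Spp1 (0.78 each), and Mmp13 like Uck2 (0.79), Il1r1 (0.78) and Fcgr2b (0.77). Mmp9 was most like Csf3r (0.71), the receptor for granulocyte colony-stimulating factor, then H2-Q10 (0.69) and S1pr3 (0.68), but had only 0.40 with the neutrophil sum. Mmp11 was most like Nnat (0.75), and Mmp3 had the weakest likeness to any gene, 0.63 for Wdr75. Among the members, Mmp8 and Mmp14 (0.75) and Mmp13 and Mmp14 (0.71) went together, while Mmp15 ran against Mmp8 (-0.78) and Mmp14 (-0.73). Among the 12 mice of day 14 alone, rho was 0.97 for Mmp13 and Mmp14 and -0.91 for Mmp14 and Mmp15. These mice did not form an even series. Replicates 1, 2, 3, 4, 7 and 8 lay above all others for Mmp3, Mmp8, Mmp13 and Mmp14 and below them for Mmp15. For Mmp14 they had at least 299.5 CPM, against at most 277 CPM in the others. This split was seen in the values and was not tested. Mmp2 and Mmp14 had a rho of 0.62, whereas Mmp9 lay between -0.22 and 0.08 with every other member, and Mmp3 had 0.01 with Mmp2 and -0.39 with Mmp11. Markers of monocyte-derived macrophages summed to a median of 1225 CPM in CTRL, 3544 on day 14 and 2212 on day 42. This sum, and the rho values with it, are weighted to its most abundant genes. Apoe and Cd9 had medians of 563 and 395 CPM in CTRL and of 2065 and 412 CPM on day 14. Trem2 went from 2.94 to 51.5 CPM and Ms4a7 from 3.29 to 24.9 CPM, and they add little to the sum. The part of these cells in Mmp8, Mmp12, Mmp14 and Mmp19 was not tested.

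**Figure D4:**
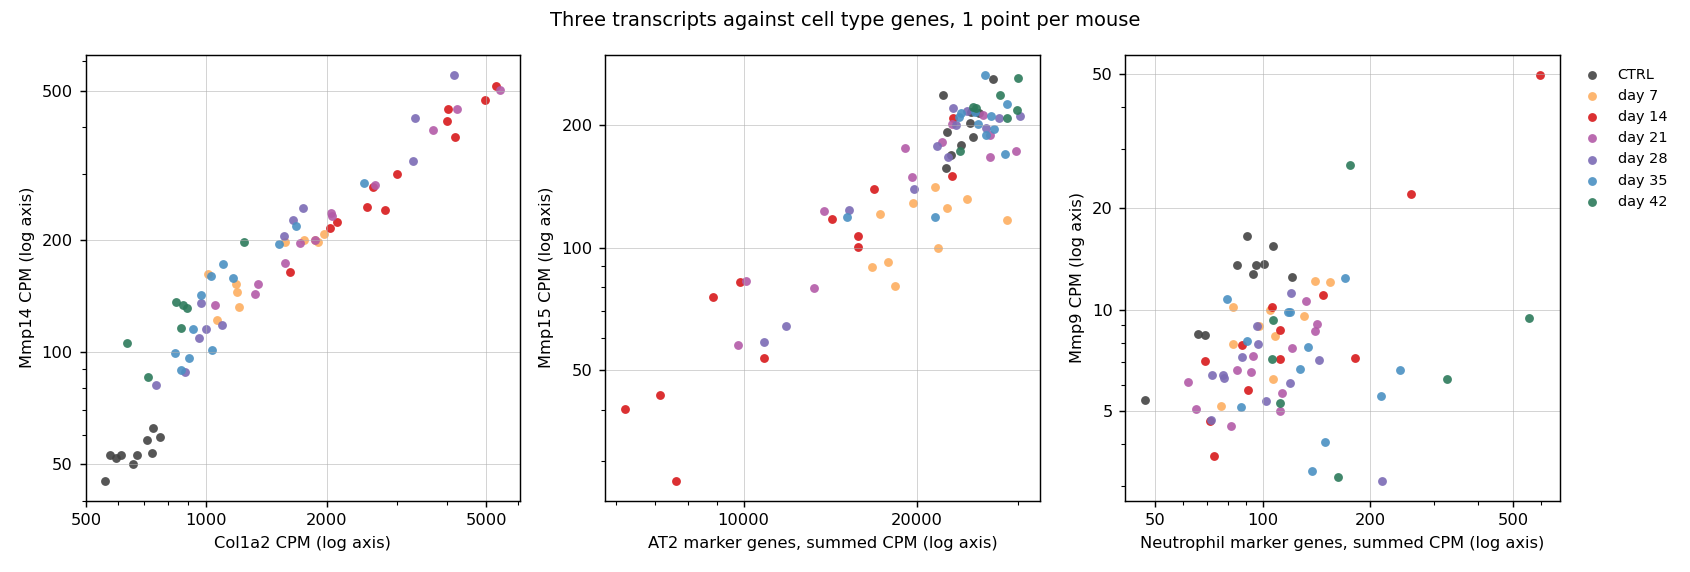
CPM of Mmp14, Mmp15 and Mmp9 in each mouse against Col1a2, the sum of 7 AT2 marker genes and the sum of 12 neutrophil marker genes, on logarithmic axes, colored by group. Mmp14 rises with Col1a2 in a narrow band, Mmp15 is low in the mice with low AT2 sums, and most Mmp9 values form a cloud from which day 14 replicate 8 (595 CPM of markers, 49.7 CPM of Mmp9) stands apart.

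The endogenous inhibitors moved in both directions. All 6 inhibitor genes listed were tested, and on day 14, 3 were higher and 1 lower than in CTRL (background 32.4% and 29.9%), with a median log2 fold change of 0.11, against 2.10 for the 10 proteases. Timp1, the inducible inhibitor, went from a mean of 5.19 CPM in CTRL to 143 CPM on day 14, a log2 fold change of 4.78 ± 0.51 (edgeR adjusted p = 2.29e-12), and was still higher by 1.98 on day 42 (edgeR adjusted p = 0.0048). A2m, the plasma protease trap, rose by 4.73 on day 14 and had a log2 fold change of -1.12 on day 42, which did not pass (edgeR adjusted p = 0.335). Timp2, which helps Mmp14 to capture the Mmp2 proenzyme, fell by 0.21 on day 7 and rose by 0.19 on day 14, from a mean of 894 CPM in CTRL. Timp3 had a mean of 1676 CPM in CTRL and log2 fold changes of -0.13 on day 14 and -0.25 on day 42, neither called. Timp4 rose by 0.82 on day 7 and was at 0.03 on day 14. Reck, a membrane-anchored inhibitor of several members, was lower on all 6 days, by 0.94 on day 14 (edgeR adjusted p = 4.57e-11) and by 0.87 on day 42 (edgeR adjusted p = 6.63e-07).

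Genes of activation and binding partners were higher for 8 of 10 tested on day 14 (background 32.4%) and for 4 of 10 on day 42 (background 13.7%), with 0 lower (background 29.9% and 11%), and their medians were 0.81 and 0.27. Lcn2, whose protein forms a complex with the Mmp9 enzyme, rose by 2.12 on day 14 and by 2.06 on day 42, the urokinase gene Plau by 1.69 and 0.72. Pcsk5, a convertase, and Plat, tissue plasminogen activator, rose by 0.90 and 0.86 on day 14. Plg, Elane and Ctsg were too low to test. Of 14 genes of matrix substrates, 13 were higher on day 14 (background 32.4%) and 8 on day 42 (background 13.7%), with medians of 2.69 and 0.74. Spp1 (osteopontin) rose by 5.62 on day 14, Eln (elastin) by 4.87, Tnc (tenascin C) by 4.10 and Fn1 (fibronectin) by 3.32, and on day 42 they were still higher by 4.07, 2.54, 2.16 and 1.15. Dcn (decorin) was not called on either day.

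Of the 13 other family members in the list, 7 could be tested. On day 14, 4 were higher (Mmp10, Mmp17, Mmp23 and Mmp25) and 1 lower (Mmp28, by 0.91), against 32.4% and 29.9% of all genes. On day 42 none of the 7 was called by edgeR (background 13.7% higher and 11% lower), with 1 at an unadjusted p under 0.05. Mmp25, a neutrophil enzyme that is also in the neutrophil list, rose by 1.07 on day 14, and Mmp23 by 0.86. Mmp10, a second stromelysin within the chromosome 9 cluster, went from a single read in all 10 CTRL mice to 526 reads in the 12 mice of day 14, with reads in each of them. Scaled to library size, the ratio was 423, with an exact 95% interval of 75.6 to 16735 that covers counting error only. On day 42 it had 15 reads, in 4 of 7 mice. Mmp1a had 0 reads in any library, and Mmp1b, Mmp7, Mmp20 and Mmp21 had at most 2 reads in a library and Mmp24 at most 13.

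**Figure D5:**
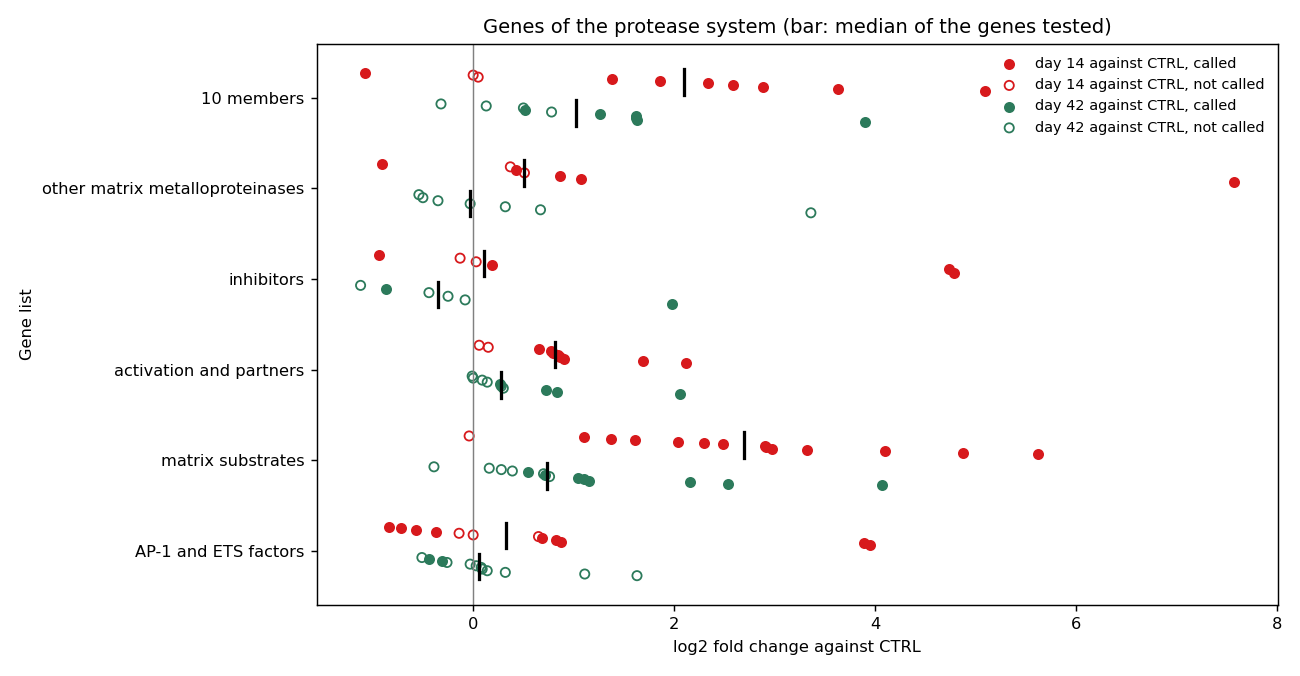
Log2 fold changes against CTRL on day 14 (red) and day 42 (green) for the 10 genes and for 5 lists of related genes, with filled points at an adjusted p under 0.05, open points above it, and a bar at the median of the genes tested. The median of the 10 genes is 2.10 on day 14 and 1.02 on day 42, that of the inhibitors 0.11 and -0.34, and the far right point is Mmp10, whose fitted value rests on 1 read in CTRL.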

How the data were processed

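The authors aligned reads of stranded poly(A) libraries with STAR 2.7.0f to GRCm38 with Ensembl release 96 and deposited 1 table of counts per gene, not normalized. The counting program and its use of strand are not given in the sources used here. The 75 columns were matched to mice by their library names in the labels. All 55536 genes were found in GENCODE M21, the same release. From the counts, edgeR 4.0.16 (R 4.3.3) was fitted once to all mice, with 1 mean per group, TMM factors, filterByExpr, quasi-likelihood F tests (two-sided) and Benjamini-Hochberg adjustment over 16221 genes. Correlations used log2 CPM with a prior count of 2. RPKM divides CPM by kilobases of exon. Alternatives were DESeq2 1.42.0, other scalings and filters, the groups compared alone, the replicate number as a block, a fold change minimum of 0.5 and each of the 75 mice left out in turn. Steps were tested on simulated data. All 375 pairs of mice of the same group differed by more than sampling noise (chi-square per degree of freedom of at least 3.88). The members, gene lists and tests were chosen with earlier results of these data known. Named genes were all members, up to 4 genes per list with the largest change called on day 14, every Timp gene, and the 3 genes most like each member, of which some are left out here. Reck, Jun, Ets2, Dcn, Mmp17, genes at very low counts and single marker genes were named after their values were seen. Protein sequences were not used here.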

Additional observations from a re-analysis of the deposited data

Results flagged for a closer look

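In 3 of 30 groups of 7 or 10 mice, 1 mouse lay far from the others of its group. The limit used would pick out about 1 in 20 groups by chance if values were normally distributed. It was applied to CPM without a log, where high values spread more widely, so the count cannot be set against that share. These were Mmp3 on day 7 (replicate 5, 115 CPM, against 74.5 CPM in the next), Mmp9 on day 42 (replicate 3, 26.9 CPM, against 9.48 CPM) and Mmp12 in CTRL (replicate 2, 15.3 CPM, against 7.57 CPM). Groups of 12 mice were not examined in this way, which leaves out Mmp9 on day 14 and Mmp13 on day 21.

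By edgeR's test of the difference, the response differed between days for 9 members, counted over all comparisons listed here. The share of all genes called in any of these comparisons was not computed. Between days 7 and 14, 9.48% of all genes were called higher and 7.55% lower. The shares were 0.45% and 0.579% from day 14 to day 21, and 15.2% and 18.8% from day 14 to day 42. The calls of Mmp11 between days 7 and 14 and of Mmp3 between days 14 and 21 were lost in several other fits. From day 7 to day 14 the log2 difference was 0.82 for Mmp2, 1.25 for Mmp8, 0.31 for Mmp11, 1.98 for Mmp12, 2.35 for Mmp13, 0.92 for Mmp14 and 1.00 for Mmp19. From day 14 to day 21 it was -0.65 for Mmp3. From day 14 to day 42 it was -0.70 for Mmp2, -0.88 for Mmp3, -2.10 for Mmp8, -1.19 for Mmp12, -2.01 for Mmp13 and -1.33 for Mmp14, and 0.47 for Mmp11 and 1.20 for Mmp15.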

How the results depend on the processing

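The counts of members called against CTRL, from day 7 to day 14 and from day 14 to day 42 stayed within 1.5 times of the reported count in every setting tried. The count from day 14 to day 21, reported as 1, was 0 with no filter, with the replicate block and in a fit of only the groups compared, and 2 with DESeq2, and it ranged from 0 to 3 with 1 mouse left out, moving for 26 of the 75 mice. From day 21 to day 28 it ranged from 0 to 2, with 2 members called without day 28 replicate 1.

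The log2 fold change of Mmp9 on day 14, reported as 0.00, changed sign to -0.04 with library size only, -0.05 with upper quartile factors, -0.02 with at least 10 counts in every mouse, -0.12 with the replicate block and -0.00 with only the groups compared, and ranged from -0.47 to 0.08 with 1 mouse left out. With 1 mouse left out, Mmp9 ranged from -0.07 to 0.49 between days 7 and 14 and from -0.83 to 0.16 between days 14 and 42, where without day 42 replicate 3 it was called (edgeR adjusted p = 0.0383). Mmp15 on day 35 ranged from -0.10 to 0.00 and Mmp19 between days 14 and 21 from -0.14 to 0.02, neither called.

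Replicate numbers did not pair the mice: 204 pairs with the same number had a median correlation of 0.01 (-0.59 to 0.63). With the replicate block, Mmp15 on day 21 (-0.50), Mmp8 on day 35 (0.78) and Mmp9 on day 35 (-0.65) were called as well. Several calls near the threshold moved. Mmp8 from day 14 to day 21 was called with DESeq2 (adjusted p = 0.0354) and without any 1 of 9 mice (edgeR adjusted p from 0.0155 to 0.0419). Others were those of Mmp9 on day 35, Mmp11 on day 7 and between days 7 and 14, Mmp15 from day 14 to day 21, and Mmp3, whose call was lost on day 28 (0.40 to 0.45) without CTRL replicate 2 or 6 or day 28 replicate 1, 2, 6 or 7, and on day 35 (0.44 to 0.47) without CTRL replicate 2 or day 35 replicate 4 or 10. A fold change minimum of 0.5 removed Mmp11 on days 21 and 28, from day 7 to day 14 and from day 14 to day 42, and Mmp3 on day 28. In a fit of only the groups compared, Mmp3 and Mmp8 were called on day 42 too (edgeR adjusted p = 0.0231 and 0.00184). Depth limits Mmp13 most, with as few as 4 counts in a library.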
